A study of Mus musculus with 9 samples.

Results

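RAW 264.7 macrophages that had received lipopolysaccharide (LPS) together with H-CDs were compared with untreated RAW 264.7 macrophages, to measure how far the treated cells still lay from the untreated state and which genes had come back to it. The comparison used 6 of the 9 RNA sequencing libraries of the series, 3 of untreated cells (control) and 3 of cells given LPS at 1 µg/ml with H-CDs at 400 µg/ml (LPS + H-CDs). The other 3 libraries, of cells given LPS at 1 µg/ml alone, showed what LPS alone had moved, and they also entered the fit and its estimate of the spread (with the 6 libraries alone, 2847 genes were called higher and 2722 lower than control, against 3120 and 2970 reported below). Exposure lasted 6 h per the series' design text. Of 54532 genes in the deposited expression table, 11707 reached at least 1 FPKM (fragments scaled to gene length and to library size) in at least 3 of the 9 libraries, and these were tested. All groups were of wild-type genotype per the labels. RAW 264.7 is an established mouse macrophage-like line, grown out of ascites and transformed by Abelson leukaemia virus, so all libraries stem from one transformed line and not from primary macrophages. H-CDs are named only by that code in the labels, and the series' title speaks of a fruit-derived nanozyme with superoxide dismutase activity. No library of cells given H-CDs without LPS was analysed here, so what H-CDs do on their own was not measured.

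LPS is a component of the outer membrane of Gram-negative bacteria. Macrophages sense it through Toll-like receptor 4 with its partners CD14 and MD-2, which start NF-κB, MAP kinase and interferon regulatory factor signalling and, within hours, the transcription of cytokines, chemokines, prostaglandin and nitric oxide synthases, and interferon-stimulated genes. The same cells hold a separate oxidant and electrophile response, in which the factor NRF2 escapes its inhibitor KEAP1 and binds antioxidant response elements near genes of glutathione synthesis, thioredoxin recycling, heme breakdown and iron storage. The integrated stress response, which acts through the factor ATF4, raises genes of amino acid supply.

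The reads that could be recovered numbered 14377161 in the shallowest library and 16069968 in the deepest, and every pair of libraries within a group differed by more than sampling noise (a chi-square of 3.25 to 23.01 for each degree of freedom). Within LPS + H-CDs, replicate 1 stood apart: mitochondrially encoded mRNA made up 0.490% of its reads, against 1.62% and 1.64% in the other 2 and 1.45% to 1.99% in the 6 control and LPS libraries. Its read counts also differed more from the other 2 of its group (chi-square 21.5 and 23.01 for each degree of freedom) than those 2 from each other (4.65). Without it, 3019 genes were higher and 2893 lower than control, and counts that moved by over 1.5 times are also given without it. The labelled cell type held against its markers, with 8 of 9 macrophage markers past the expression filter. Mertk, the other one, had 1 read in LPS + H-CDs replicate 2 and 0 in all other libraries. The 9 markers summed to 2808 to 3129 FPKM in control, 3712 to 4089.5 with LPS and 2966 to 3102 FPKM with LPS + H-CDs. Like sums did not mean unchanged markers. Of the 8 tested, 2 were higher and 4 lower with LPS + H-CDs than in control (26.7% and 25.4% of all genes were; median log2 difference -0.35). Of 8 epithelial markers 7 had no read in any library, and the sums of the epithelial, mast cell, fibroblast and neutrophil lists stayed under 1 FPKM in the control and LPS + H-CDs libraries. The T-cell list, with 3 of 9 genes at 0 reads, summed to 0.919 to 1.30 FPKM in control, 3.81 to 4.63 with LPS and 4.05 to 5.29 with LPS + H-CDs. Its level rested on Lck, the 1 member past the expression filter, while no other member had over 3 reads in a library. The endothelial list, with 1 of 8 at 0 reads, summed to 3.70 to 4.13 FPKM in control and 2.001 to 2.65 with LPS + H-CDs. The part of these lists in the results was not tested. The B-cell list summed to 87.0 to 93.4 FPKM in control and 41.2 to 59.2 with LPS + H-CDs, while its defining member Ms4a1 was at 0, and its level rested on Ighm. The labels do not state whether the libraries within a group are separate cultures, and p-values therefore measure the spread between these libraries, which may be technical. In bulk libraries fewer cells that express a gene and less RNA of it per cell cannot be told apart.

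With LPS + H-CDs the cells stayed far closer to the LPS state than to the untreated state. Each library was placed on the line from the control mean to the LPS mean over all tested genes, on the log2(FPKM + 1) scale, where 0 is control and 1 is LPS. The LPS + H-CDs libraries lay at 0.825, 0.844 and 0.839 (mean 0.836 ± 0.01003, SD, n = 3). The control libraries, each projected on a line built without it, lay at 0.0305 ± 0.0192 (SD, n = 3) and the LPS libraries at 0.971 ± 0.0194 (SD, n = 3), and the 3 groups did not overlap. The LPS + H-CDs libraries also lay farther off that line, by a root mean square of 0.348 ± 0.0359 per gene, against 0.249 ± 0.0109 for control and 0.244 ± 0.0120 for LPS (SD, n = 3 each). Off the line, replicate 1 was the farthest at 0.389, with the other 2 at 0.334 and 0.322. The root mean square distance between group means was 0.748 for LPS + H-CDs to control, 0.824 for LPS to control and 0.321 for LPS + H-CDs to LPS. Single libraries of control and LPS + H-CDs were 0.770 to 0.808 apart, while libraries of one group were 0.269 to 0.363 apart. These positions are a description, and no test was made of them.

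**Figure D1:**
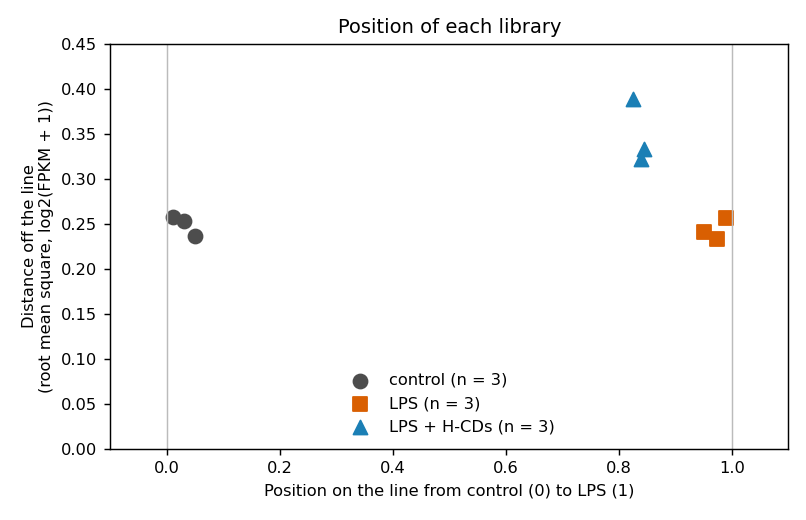
Position of the 9 libraries on the line from control (0) to LPS (1), horizontal axis, against the distance off that line (root mean square on the log2(FPKM + 1) scale), vertical axis; each point is 1 library. The 3 LPS + H-CDs libraries sit between 0.825 and 0.844 along the line and between 0.322 and 0.389 off it, above all control and LPS libraries.

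About as many genes lay above the untreated level as below it. Of 11707 tested genes, 3120 (26.7%) were higher with LPS + H-CDs than in control and 2970 (25.4%) were lower (limma, Benjamini-Hochberg adjusted p under 0.05), together 52%. At least 2-fold changes on the log2(FPKM + 1) scale were fewer, 713 higher (6.09%) and 458 lower (3.91%). The 3 libraries of each group did not overlap at 6750 genes (57.7%), with LPS + H-CDs the higher at 29.7% of all tested genes and the lower at 28%. The balance depends on scaling: the authors' FPKM library sizes were 1.13 to 1.15 times the recovered reads in control, 0.928 to 0.935 times in LPS and 0.983 to 0.993 times in LPS + H-CDs. With values scaled to TPM (transcript shares of a fixed total) instead, the median log2 difference of all genes moved from 0.01 to -0.28 and 1651 genes were higher and 5338 lower, and with values scaled to total reads the median was -0.16 and the counts were 2033 and 4528. Differences below are on the deposited scale, and a difference smaller than these shifts is not certain in direction.

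The genes farthest above control were secreted mediators and the enzymes that make small inflammatory molecules. Cxcl2, a neutrophil-attracting chemokine (chr5:90903871-90905938, + strand), read 0.550, 0.456 and 0.522 FPKM in the control libraries, 1244, 1116 and 1189 with LPS and 1590.5, 2241 and 1826 with LPS + H-CDs. The groups did not overlap, and the LPS + H-CDs libraries were the highest of the 9. Its log2 difference from control was 10.27 ± 0.11 (SE; adjusted p = 1.2e-11), the largest of all named genes. Csf3, which encodes granulocyte colony-stimulating factor, read 0.0847, 0.275 and 0.121 FPKM in the control libraries, 1446, 1465 and 1457 with LPS and 659, 818 and 806 with LPS + H-CDs. Its LPS + H-CDs libraries lay below the LPS libraries and far above control, with a log2 difference from control of 9.36 ± 0.09 (SE; adjusted p = 1.1e-11). Acod1, the enzyme that makes itaconate, followed at 9.23 ± 0.07 (SE; adjusted p = 5.2e-12) and Ptgs2, the inducible prostaglandin synthase, at 8.84 ± 0.11 (SE; adjusted p = 3.1e-11). The chemokines Ccl5, Ccl3 and Ccl4 stood at 8.72, 7.35 and 7.10 and the cytokines Il1b and Lif at 7.81 and 7.04. The ubiquitin-like interferon-stimulated gene Isg15 closed the 10 highest at 6.40. In Ccl3, the LPS + H-CDs libraries read 6114, 11778 and 10826 FPKM against 53.3, 56.05 and 57.4 in control, and replicate 1 was the lowest of the treated libraries.

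The genes farthest below control included a cholesterol exporter, a thymidine kinase and a haematopoietic transcription factor. Kbtbd11, a BTB and kelch domain protein (chr8:15011025-15033333, + strand), read 74.7, 77.8 and 69.3 FPKM in the control libraries, 4.31, 4.19 and 3.65 with LPS and 6.33, 5.83 and 6.01 with LPS + H-CDs. The LPS + H-CDs libraries lay just above the LPS libraries and far below control, with a log2 difference from control of -3.41 ± 0.07 (SE; adjusted p = 7.3e-10). Abcg1, a cholesterol exporter, fell from 16.3 ± 0.389 to 2.11 ± 0.355 FPKM (SD, n = 3), a log2 difference of -2.48 ± 0.09 (SE; adjusted p = 2.1e-08). Tk1, the thymidine kinase made in S phase, fell from 41.6 ± 2.08 to 7.36 ± 0.274 FPKM, a log2 difference of -2.35 ± 0.06 (SE; adjusted p = 2.4e-09). Ranbp3l, C130050O18Rik, Lrrc75a, the sulfotransferase Chst1, the factor Lyl1, the myosin Myo1f and the scaffold Ahnak completed the 10 lowest, from -2.85 for Ranbp3l to -2.38 for Ahnak. The 10 genes farthest from control in either direction held 10.5% of the summed squared distance from control over all genes, and the 100 farthest held 32.4%.

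**Figure D2:**
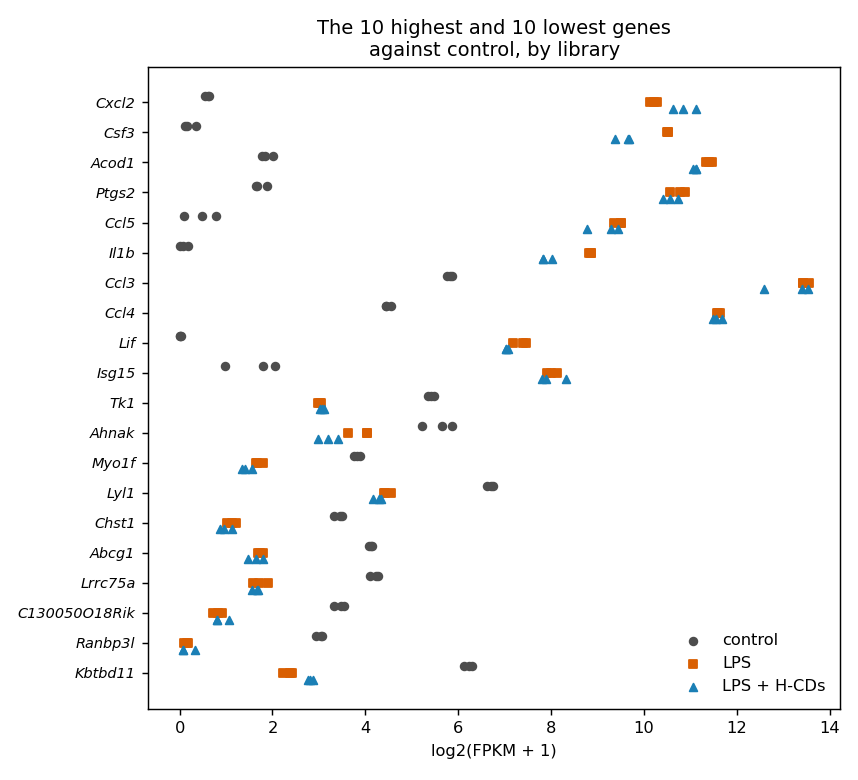
Expression on the log2(FPKM + 1) scale, horizontal axis, of the 10 genes highest and the 10 lowest with LPS + H-CDs against control; each point is 1 library. The genes were picked for no overlap between LPS + H-CDs and control, so their separation from control follows from that choice. Against LPS alone they differ: Cxcl2 and Ahnak moved further from control, while Csf3 lay nearer to it.

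To ask which genes had come back, the genes that LPS alone had raised or lowered at least 2-fold were followed, 844 raised (7.21%) and 539 lowered (4.6%). A gene was called back at the control level where it moved back against LPS alone (adjusted p under 0.05, met by 6.54% of all genes for higher and 9.05% for lower, together 15.6%) and the whole 95% interval of its difference from control lay within 1.5-fold either way. Of all tested genes, 51.6% had such a narrow interval around control, most of which LPS had not moved. Only 11 of the 844 raised genes (0.094% of those tested) and 6 of the 539 lowered genes (0.0513%) were back by this rule. Part of the way back, lower than with LPS and still above control, lay 403 raised genes (3.44%), and 109 lowered genes (0.931%) lay part of the way up. No difference from LPS alone was called for 376 raised and 408 lowered genes, and 13 raised and 2 lowered genes moved back with an interval too wide to place them. The other 41 raised (0.35%) and 13 lowered genes (0.111%) moved further from control. These groups are built from contrasts that share control and LPS libraries, so their counts are a description. The count depends on the margin: within 2-fold, 105 raised and 44 lowered genes were back, and under a narrower margin 0 of each. Scaled to TPM, 21 lowered genes were back, 1 of them among the 6.

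**Figure D3:**
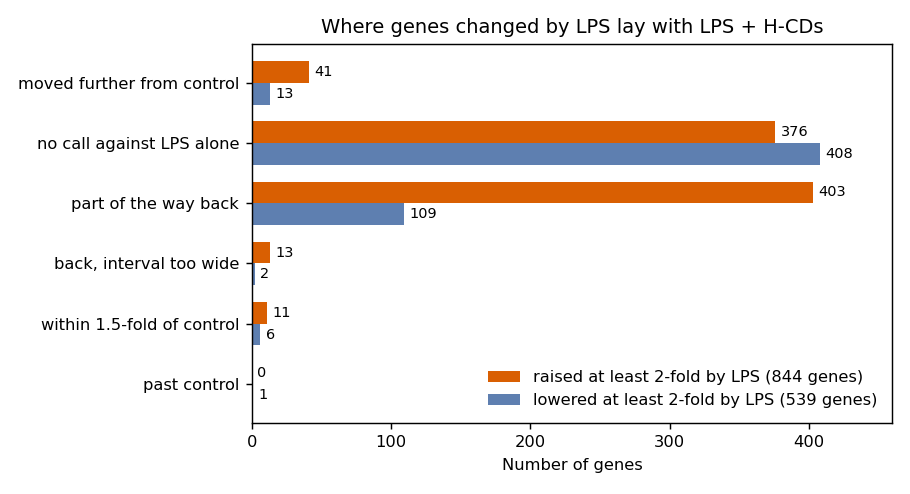
Number of genes, horizontal axis, by where they lay with LPS + H-CDs, for the 844 genes raised and the 539 genes lowered at least 2-fold by LPS. Most raised genes lay part of the way back (403) or had no call against LPS alone (376), most lowered genes had no such call (408), and 11 and 6 were within 1.5-fold of control.

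How much of the LPS change was left differed between the directions, more on the FPKM scale than on the log2 scale. Of the FPKM gained with LPS, the raised genes kept a median of 66.7% with LPS + H-CDs (quartiles 51.8% and 87.9%). Of the FPKM lost, the lowered genes kept 93.6% of the loss (quartiles 83.7% and 100.1%). On the log2 scale the medians were 79.4% (quartiles 66.1% and 93.3%) for raised and 89.1% (quartiles 75.9% and 100.2%) for lowered genes. Those quartile ranges overlapped widely. Against control, 806 of the 844 raised genes were still called higher and 526 of the 539 lowered genes still called lower. Raised genes part of the way back made up 27.97% of the squared distance between LPS + H-CDs and control, raised genes without a call against LPS 22.03%, and lowered genes without such a call 11.4%. Genes outside these groups, 10306 of 11707, made up 28.2%.

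Among the raised genes that came back, those with at least 5 FPKM in any group were Cd300e, Pfkfb3, Ms4a6c, Nr4a1, Sema4c and Rgl1. Cd300e, an activating receptor of myeloid cells (chr11:115051917-115062177, - strand), read 1.32, 1.06 and 1.28 FPKM in the control libraries, 6.92, 7.34 and 6.85 with LPS and 1.32, 1.82 and 1.95 with LPS + H-CDs. All LPS + H-CDs libraries lay far below the LPS libraries and at or just above control. Its difference from control was 0.28 (95% interval 0.04 to 0.51, adjusted p = 0.048), a call that was lost under 15 of the other settings tried. Pfkfb3, the kinase that makes fructose 2,6-bisphosphate and so drives glycolysis (chr2:11471433-11554077, - strand), read 13.1, 12.7 and 11.3 FPKM in the control libraries, 36.9, 39.3 and 31.5 with LPS and 16.1, 15.2 and 16.6 with LPS + H-CDs. The LPS + H-CDs libraries did not overlap with control and were nearer to it than to LPS, with a log2 difference from control of 0.35 (95% interval 0.14 to 0.55, adjusted p = 0.0097). Ms4a6c, a membrane protein of the MS4A family (chr19:11469366-11482192, + strand), read 2.77, 3.41 and 3.63 FPKM in the control libraries, 11.3, 8.91 and 11.1 with LPS and 2.79, 2.66 and 2.46 with LPS + H-CDs. It was the one gene of the 6 whose mean with LPS + H-CDs was below control, by -0.23 (95% interval -0.47 to 0.01, adjusted p = 0.1), and its lowest control library overlapped the treated ones.

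Nr4a1, an orphan nuclear receptor induced early after stimulation (chr15:101254269-101274795, + strand), read 2.13, 2.23 and 1.90 FPKM in the control libraries, 5.40, 6.55 and 5.37 with LPS and 2.09, 2.57 and 2.91 with LPS + H-CDs. The control and LPS + H-CDs libraries overlapped, at a log2 difference of 0.19 (95% interval -0.06 to 0.43, adjusted p = 0.18). Sema4c, a semaphorin, went from 8.10 ± 0.165 FPKM with LPS to 4.07 ± 0.293 with LPS + H-CDs, against 3.25 ± 0.539 in control (SD, n = 3), and its difference from control was 0.26 (95% interval 0.05 to 0.48, adjusted p = 0.045). That call too was lost under 13 of the other settings. Rgl1, an exchange factor for Ral GTPases (chr1:152516760-152766351, - strand), read 12.8, 13.4 and 11.6 FPKM in the control libraries, 27.3, 26.6 and 26.1 with LPS and 16.3, 15.2 and 17.1 with LPS + H-CDs. Its treated libraries lay above all control libraries and well below LPS, with a difference from control of 0.33 (95% interval 0.18 to 0.49, adjusted p = 0.0028). Of the 10 returned raised genes with a promoter in the RefSeq table, Rgl1 was the one whose window held the κB letters searched. The 250 bases before its start (chr1:152766306-152766555, - strand, GRCm38.p6, RefSeq) are shown with those letters in capitals, which begin 46 bases before the RefSeq start.
Rgl1: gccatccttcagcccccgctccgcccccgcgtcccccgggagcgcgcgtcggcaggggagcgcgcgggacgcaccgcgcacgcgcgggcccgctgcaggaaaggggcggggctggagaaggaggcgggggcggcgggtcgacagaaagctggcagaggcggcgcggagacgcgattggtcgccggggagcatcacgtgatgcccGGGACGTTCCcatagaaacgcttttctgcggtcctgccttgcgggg
The RefSeq start lies 46 bases from the start of the gene in the deposited table. The κB motif, sought on both strands from 250 bases before to 50 bases after the start, was in 123 of the 8054 tested genes with a promoter in the RefSeq table (1.53%). In that window 1 of the 10 genes held the core of the interferon-stimulated response element, against 3.18% of all.

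The remaining 5 raised genes that came back were under 5 FPKM in every group. The formyl peptide receptor Fpr1 read 1.98, 1.61 and 2.21 FPKM with LPS and 0.254, 0.0958 and 0.313 with LPS + H-CDs and was listed at 0 in all control libraries. Has1, a hyaluronan synthase, fell from 1.52 ± 0.128 FPKM with LPS to 0.0688 ± 0.00852 (SD, n = 3), with 0.0247 ± 0.0324 in control. The copper-carrying ferroxidase Cp, Zmynd15 and 1700006J14Rik made up the rest, at 0.181 ± 0.0771, 1.41 ± 0.196 and 0.735 ± 0.158 FPKM with LPS + H-CDs. The added 1 FPKM of the log scale narrows differences at such low values, and with 0.1 in its place 4 of the 11 genes were still placed back, as were 4 with TPM and 4 with total reads. Without LPS + H-CDs replicate 1, 9 of the 11 were. Being within 1.5-fold did not mean no difference: on the deposited scale 5 of the 11 were called higher than control, Pfkfb3, Rgl1, Cd300e, Zmynd15 and Sema4c. The calls of Pfkfb3, Rgl1, Cd300e and Sema4c were lost with TPM and with total reads, so they depend on the scaling. At the edge of the margin, 1700006J14Rik was just inside with an interval reaching 0.58 and the sialomucin Spn just outside with 0.61 (a 1.5-fold difference on the log2 scale lies between them).

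Among the lowered genes that came back, Lipa, Card19 and Cd151 had at least 5 FPKM. Lipa, the lysosomal acid lipase that frees cholesterol from its esters (chr19:34492318-34527474, - strand), read 99.03, 92.5 and 96.1 FPKM in the control libraries, 43.6, 38.6 and 39.6 with LPS and 77.2, 87.8 and 89.5 with LPS + H-CDs. The treated libraries lay more than 2-fold above LPS and just below all control libraries, and their difference from control was -0.18 (95% interval -0.35 to -0.01, adjusted p = 0.076). Card19, a CARD domain protein (chr13:49202950-49216037, - strand), read 43.5, 45.9 and 48.4 FPKM in the control libraries, 16.8, 18.7 and 19.6 with LPS and 33.6, 38.8 and 35.9 with LPS + H-CDs. Its treated libraries stayed below all control libraries, by -0.34 (95% interval -0.52 to -0.16, adjusted p = 0.0055), and it was the one of the 6 still called lower than control. Cd151, a tetraspanin (chr7:141467392-141471473, + strand), went from 3.18 ± 0.556 FPKM with LPS to 6.01 ± 0.713 with LPS + H-CDs, against 7.53 ± 0.785 in control. Osgin1, an oxidative stress-induced growth inhibitor and a known NRF2 target, read 2.73, 2.97 and 3.38 FPKM in the control libraries, 0.756, 0.771 and 0.796 with LPS and 3.07, 3.96 and 3.90 with LPS + H-CDs. It overlapped control, at a log2 difference of 0.20 (95% interval -0.03 to 0.43, adjusted p = 0.12). Mettl7a1 and the circadian repressor Bhlhe41 completed the 6, at 1.76 ± 0.148 and 3.56 ± 0.114 FPKM with LPS + H-CDs against 2.21 ± 0.126 and 4.53 ± 0.107 in control. Without LPS + H-CDs replicate 1, 5 of the 6 were placed back, with a pseudocount of 0.1 or with total reads 3, and with TPM 1.

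Of the genes that LPS had moved at least 2-fold, 1 lay beyond the control level. No raised gene was called below control with LPS + H-CDs (limma, 0 also at an unadjusted p under 0.05), and of the lowered genes 1 was called above it (0.00854%). That gene was Slc48a1, the heme transporter that lets heme out of the phagolysosome (chr15:97778520-97792692, + strand), at 17.9, 19.6 and 20.6 FPKM in the control libraries, 7.52, 7.68 and 6.75 with LPS and 47.8, 65.8 and 64.9 with LPS + H-CDs. The 3 groups did not overlap, and replicate 1 was the lowest of the treated libraries. Its log2 difference from control was 1.56 ± 0.12 (SE; adjusted p = 4.8e-06) and from LPS alone 2.85 (adjusted p = 1.5e-06). Scaled to TPM there were 3 such lowered genes and 1 such raised gene. Genes that LPS had lowered by less than 2-fold are not in this count, and some of them, such as Cat, also lay above control. Cbr3, a carbonyl reductase, also read higher than control on average, 5.74 ± 1.27 against 4.49 ± 0.943 FPKM after 0.818 ± 0.0206 with LPS, but its libraries overlapped and its interval (-0.06 to 0.65) fell just outside the margin.

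**Figure D4:**
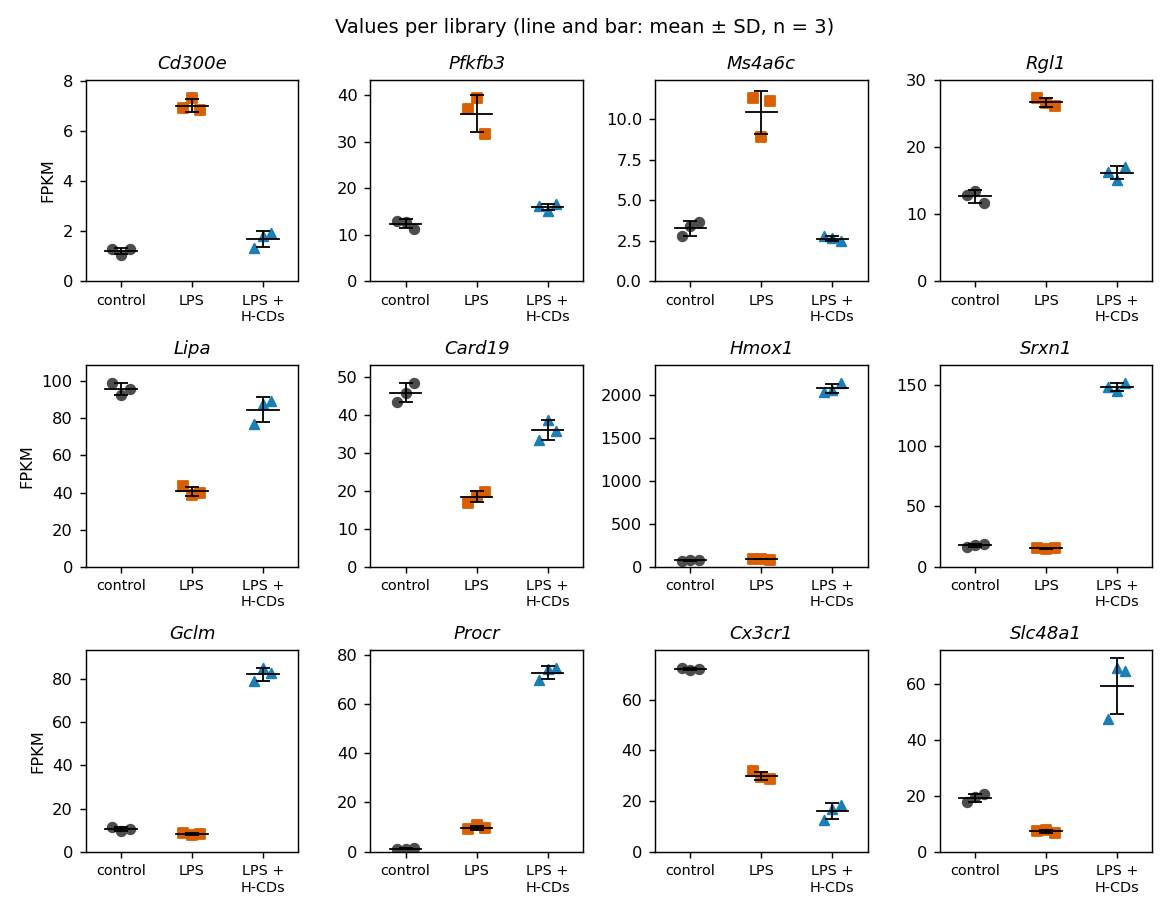
FPKM per library, vertical axes starting at 0, of 12 genes in control, LPS and LPS + H-CDs, and lines and bars are mean ± SD (n = 3). Cd300e, Pfkfb3, Ms4a6c, Rgl1, Lipa and Card19 are back within 1.5-fold of control, Hmox1, Srxn1 and Gclm rose from a level LPS had left near control, Procr and Cx3cr1 moved further from control than with LPS, and Slc48a1 is above control.

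Some genes that LPS alone had left near the control level were well above it with LPS + H-CDs. At 18 genes (0.154%) the LPS interval lay within 1.5-fold of control and the LPS + H-CDs level was at least 2-fold higher than control and higher than LPS. That LPS margin alone was met by 48.5% of all genes, and 0.47% were at least 2-fold higher and 0.675% at least 2-fold lower with LPS + H-CDs than with LPS. Within the margin, LPS alone could still differ from control. Hmox1, Prdx1, Esd, Slc11a1, Dcstamp and Psph were called higher with LPS than in control, and Gclm and Srxn1 lower (limma, adjusted p under 0.05). No gene met the mirror-image rule for lower levels (limma, 0 also at an unadjusted p under 0.05). The 18 genes were led by enzymes of heme breakdown, glutathione synthesis and peroxide reduction, and they made up 1.20% of the squared distance from control. Hmox1, the inducible heme oxygenase (chr8:75093621-75100589, + strand), read 66.96, 77.99 and 75.96 FPKM in the control libraries, 86.6, 89.1 and 82.6 with LPS and 2029, 2058 and 2135 with LPS + H-CDs. Control and LPS lay close together and the treated libraries stood 28.2-fold above control on the FPKM scale, with a log2 difference of 4.80 ± 0.07 (SE; adjusted p = 9.4e-11). Srxn1, the sulfiredoxin that repairs over-oxidised peroxiredoxins (chr2:152105516-152111376, + strand), read 16.1, 18.1 and 18.6 FPKM in the control libraries, 15.6, 14.9 and 15.6 with LPS and 148, 145 and 152 with LPS + H-CDs. Its treated libraries were 8.42-fold above control, with a log2 difference of 3.01 ± 0.06 (SE; adjusted p = 7.9e-10).

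Gclm, the modifier subunit of the enzyme that limits glutathione synthesis (chr3:122245557-122270732, + strand), read 11.5, 9.39 and 10.7 FPKM in the control libraries, 8.55, 7.95 and 8.30 with LPS and 78.9, 84.98 and 82.9 with LPS + H-CDs. All LPS libraries lay below control and all treated libraries far above it, by a log2 difference of 2.85 ± 0.08 (SE; adjusted p = 3.2e-09). Prdx1, an abundant peroxiredoxin that reduces hydrogen peroxide (chr4:116685544-116700822, + strand), read 141, 133 and 166 FPKM in the control libraries, 189.7, 177 and 189.7 with LPS and 895, 1060.0 and 961 with LPS + H-CDs. LPS libraries lay slightly above control and treated libraries 6.62-fold above it, with a log2 difference of 2.72 ± 0.10 (SE; adjusted p = 2.5e-08). The promoters of these 2 genes held the antioxidant response element core that NRF2 binds, TGACNNNGC on either strand, and the 250 bases before each start are shown with the matched letters in capitals (GRCm38.p6, RefSeq; Gclm at chr3:122245307-122245556, + strand, Prdx1 at chr4:116685349-116685598, + strand). The match starts 134 bases before the start of Gclm and 133 bases before that of Prdx1, whose RefSeq start lies 55 bases from the start in the deposited table.
Gclm: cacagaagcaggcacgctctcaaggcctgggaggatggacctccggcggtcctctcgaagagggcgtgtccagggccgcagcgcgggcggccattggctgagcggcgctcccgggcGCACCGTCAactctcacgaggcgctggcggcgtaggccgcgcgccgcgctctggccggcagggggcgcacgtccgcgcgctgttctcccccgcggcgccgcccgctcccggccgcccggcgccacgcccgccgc
Prdx1: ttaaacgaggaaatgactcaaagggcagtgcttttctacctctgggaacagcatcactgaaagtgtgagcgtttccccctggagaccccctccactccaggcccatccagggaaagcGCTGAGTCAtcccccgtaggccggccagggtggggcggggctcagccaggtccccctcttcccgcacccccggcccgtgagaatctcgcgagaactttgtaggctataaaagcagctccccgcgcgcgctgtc
In Prdx1 the matched letters overlap a match to the AP-1 motif TGANTCA. The antioxidant core was in 4 of the 13 genes of this group with a promoter in the table (30.8%), Gclm, Prdx1, Srxn1 and Psph, and in 1215 of all 8054 (15.1%). Of the 10 returned raised genes with a promoter, 0 held it. A match is only a match of letters, and binding was not measured.

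Esd, an esterase that also hydrolyses S-formylglutathione, rose from 48.2 ± 1.91 to 225 ± 12.9 FPKM (SD, n = 3), and Blvrb, a biliverdin reductase of the heme pathway, from 12.9 ± 2.25 to 58.1 ± 8.96. Both were within 1.5-fold of control with LPS alone, at 62.1 ± 1.84 and 12.1 ± 0.743 FPKM. The iron carriers of the group were Slc11a1 (NRAMP1), which takes iron out of phagosomes, and Slc40a1 (ferroportin), the iron exporter of the cell surface. Slc11a1 read 12.8, 14.8 and 13.5 FPKM in the control libraries, 16.9, 16.5 and 15.9 with LPS and 40.99, 43.9 and 47.2 with LPS + H-CDs. Slc40a1 read 0.186, 0.283 and 0.322 FPKM in the control libraries, 0.125, 0.0491 and 0.111 with LPS and 4.21, 4.001 and 3.62 with LPS + H-CDs. Both stood above every control and LPS library, at log2 differences from control of 1.62 and 1.97. On the FPKM scale LPS alone had lowered Slc40a1 2.78-fold, at values near the floor. The added 1 FPKM of the log scale narrows such a difference, so its place near control with LPS depends on that scale. Among the others were the kinesin Kif3c (1.56), the tubulin Tubb2a (1.37), the fusion receptor Dcstamp (1.29) and the serine-making phosphatase Psph (1.06). The remaining genes, Treml4, Rassf8, Gm42883, Chpf2, Slc6a9 and BC028528, rose by log2 differences of 1.02 to 1.33. With a narrower margin the group held 2 genes and with a 2-fold margin 66. Of the 18, 16 were placed in the group without LPS + H-CDs replicate 1, 14 with a pseudocount of 0.1, 11 with total reads and 7 with TPM.

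A further set had been moved by LPS and lay even farther from control with H-CDs. Procr, the endothelial protein C receptor (chr2:155751117-155755471, + strand), read 1.21, 1.17 and 1.46 FPKM in the control libraries, 9.11, 10.7 and 9.53 with LPS and 69.7, 73.95 and 74.4 with LPS + H-CDs. Its treated libraries were 56.8-fold above control, at a log2 difference of 5.02 ± 0.08 (SE; adjusted p = 9.4e-11) from control and 2.77 (adjusted p = 7.5e-08) from LPS. Sqstm1, the autophagy receptor p62 (chr11:50199366-50210827, - strand), read 48.7, 57.04 and 55.6 FPKM in the control libraries, 218, 218 and 224 with LPS and 995, 934 and 880.5 with LPS + H-CDs. The groups did not overlap, and the difference from control was 4.10 ± 0.08 (SE; adjusted p = 3.8e-10). Slc7a11, the cystine importer that feeds glutathione synthesis (chr3:49892526-50443614, - strand), read 3.54, 2.94 and 2.95 FPKM in the control libraries, 18.4, 17.9 and 15.7 with LPS and 61.8, 73.98 and 73.1 with LPS + H-CDs. Again the groups rose in steps without overlap, to a difference from control of 4.09 ± 0.09 (SE; adjusted p = 1.3e-09). Trib3, a pseudokinase of the integrated stress response, reached 34.9 ± 5.04 FPKM against 5.27 ± 0.852 in control (SD, n = 3), and Atf3, a stress-induced repressor, 134 ± 8.04 against 5.89 ± 0.739. The 41 genes also held the chemokine Cxcl2, the cytokine subunit Il23a (log2 difference from control 2.72), the protease inhibitor Slpi (3.48), the early response gene Ier3 (4.11), the checkpoint genes Cd274 (2.36) and Pdcd1 (3.04), and the stress response genes Atf4 (1.52), Cth (2.98) and Chac1 (2.81).

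On the lower side, Cx3cr1, the fractalkine receptor (chr9:119901616-120069879, - strand), read 72.3, 71.5 and 72.1 FPKM in the control libraries, 31.7, 29.4 and 28.8 with LPS and 12.5, 16.9 and 18.5 with LPS + H-CDs. The treated libraries were the lowest of the 9, at -2.12 ± 0.12 (SE; adjusted p = 5.5e-07) from control and -0.88 (adjusted p = 0.0014) from LPS. Gpx1, the main cytosolic glutathione peroxidase (chr9:108338903-108340343, + strand), read 192, 202 and 210.1 FPKM in the control libraries, 91.9, 89.2 and 100.2 with LPS and 52.7, 55.2 and 60.3 with LPS + H-CDs. It fell in the treated cells while Prdx1 rose in them, with a log2 difference from control of -1.83 ± 0.07 (SE; adjusted p = 5.4e-08). Itga4, the α4 integrin chain, fell from 117 ± 22.5 to 33.1 ± 2.72 FPKM and Cd33, an inhibitory sialic acid receptor, from 9.86 ± 0.787 to 1.33 ± 0.103 (SD, n = 3). Ahnak, Nfam1, Zfp710, Uhrf1, Arhgap45, E2f8, Pianp, Tnfrsf11a and Man1c1 made up the rest of the 13. That count was 7 without LPS replicate 1 and 7 without LPS replicate 2.

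The inflammatory lists were above control almost throughout. Of 17 cytokine genes 14 were tested, and all 14 were higher than control with LPS + H-CDs (26.7% of all genes were). Of these, 13 were at least 2-fold higher, with a median log2 difference of 4.45 beside 0.01 for all genes. Cytokine, chemokine and effector genes near 0 in control could pass the expression filter only through libraries given LPS. Their direction was thereby largely fixed, and the share over all genes is no yardstick for these counts. Il1b, which encodes interleukin-1β, read 0.125, 0.0582 and 0 FPKM in control and 225, 260.1 and 226 with LPS + H-CDs, and Tnf, which encodes tumour necrosis factor, 56.2, 60.1 and 57.1 FPKM in control and 2116, 2986 and 2575 with LPS + H-CDs. Neither gene's groups overlapped, and the log2 differences were 7.81 ± 0.07 (SE; adjusted p = 9.8e-12) and 5.43 ± 0.11 (SE; adjusted p = 7.3e-10). Il6, which encodes interleukin-6, was listed at 0 in all control libraries and read 8.18, 11.6 and 10.8 FPKM with LPS + H-CDs and 17.5, 15.2 and 16.9 with LPS. Of 18 chemokine genes 11 were tested and 10 of them rose, with a median of 4.61. Ccl22, which attracts T cells, had kept 18.5% and the monocyte attractant Ccl2 31.2% of the FPKM that LPS had added, and they were still 4.61 ± 0.09 (SE; adjusted p = 4.2e-10) and 3.51 ± 0.09 (SE; adjusted p = 3.4e-09) above control. Ccl17 was the chemokine that did not pass the test: it read 0.233, 0.432 and 1.22 FPKM in the control libraries, 5.25, 6.16 and 5.70 with LPS and 0.917, 0.617 and 1.08 with LPS + H-CDs. Control and treated libraries overlapped, but the interval from -0.21 to 0.69 was too wide to place it within 1.5-fold.

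Of 22 NF-κB subunits and inhibitors 20 rose (26.7% of all genes did), 16 of them at least 2-fold (median 1.86). Among them were the nuclear inhibitor Nfkbiz at 4.70, the signalling adaptor Traf1 at 3.71 and Nfkbia, which encodes IκBα, at 2.90. Rela and the deubiquitinase Cyld did not pass the test, at 0.16 and -0.08. All 42 interferon-stimulated genes rose, 39 at least 2-fold (median 2.28). Oasl1, an oligoadenylate synthetase-like protein, read 9.22, 9.95 and 9.03 FPKM in the control libraries, 366, 365 and 356 with LPS and 419, 402 and 417 with LPS + H-CDs. Its treated libraries were the highest of the 9, 5.31 ± 0.06 (SE; adjusted p = 1.2e-11) above control, with no call against LPS. Irf7, the master factor of type I interferon, had kept 64.5% of its LPS gain and stood at 3.68 ± 0.06 (SE; adjusted p = 9.8e-11). The lowest of the list were the guanylate-binding proteins Gbp2 (0.62) and Gbp5 (0.62) and the dynamin-like Mx1 (0.63). Of 26 effector genes 17 were tested and all 17 rose (median 2.56). Nos2, the inducible nitric oxide synthase, read 1.02, 2.11 and 1.17 FPKM in the control libraries, 142, 134 and 109.7 with LPS and 51.7, 51.5 and 51.4 with LPS + H-CDs. Its treated libraries lay close together, below all LPS libraries and still 4.46 ± 0.16 (SE; adjusted p = 2.1e-08) above control. Cd40, a costimulatory receptor, kept 46.1% of its LPS gain and stood at 4.23 ± 0.05 (SE; adjusted p = 2.9e-11).

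Feedback genes rose as well, 16 of 18 (26.7% of all genes did), with a median of 2.33. Il1rn, the interleukin-1 receptor antagonist, read 1.23, 1.27 and 1.21 FPKM in the control libraries, 155, 150.3 and 135 with LPS and 27.4, 39.1 and 35.4 with LPS + H-CDs. It had lost most of its LPS gain and was still 3.95 ± 0.12 (SE; adjusted p = 7.1e-09) above control. Socs3, an inhibitor of cytokine receptor signalling, stood at 5.06 ± 0.07 (SE; adjusted p = 8.7e-11) and Zfp36, which speeds decay of cytokine mRNA, at 3.84 ± 0.06 (SE; adjusted p = 1.2e-10). In this list Nr4a1 did not pass the test and Zfp36l1 fell (-0.43), a call lost without LPS + H-CDs replicate 1, where 0 of the 18 were lower.

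Of 30 NRF2 target genes 24 were higher than control (26.7% of all genes), 13 at least 2-fold, and 2 were lower, with a median log2 difference of 0.70 beside 0.01 for all genes. With LPS alone 9 of the 30 were higher and 18 lower than control, with a median of -0.31. Against LPS, 27 of the 30 were higher with LPS + H-CDs (6.54% of all genes were). Scaled to TPM, 18 were higher and 3 lower than control. Beyond those named above, Akr1b8, an aldo-keto reductase, stood at 2.14, the exporter Abcc1 at 2.02, the thioredoxin reductase Txnrd1 at 1.96, and the ferritin chains Fth1 and Ftl1 at 1.49 and 1.29. Gclc, the catalytic partner of Gclm, was only 0.24 ± 0.06 (SE; adjusted p = 0.012) above control. Cbr3, Osgin1, Taldo1 and Gstm1 did not pass the test, at 0.29, 0.20, 0.22 and -0.24, and Tkt (-0.32) and the epoxide hydrolase Ephx1 (-0.68) fell. Nqo1, a quinone reductase often used as an NRF2 marker, stayed under the expression filter and was not tested. It read 0.116, 0.250 and 0.146 FPKM in the control libraries and 0.145, 0.0474 and 0.0857 with LPS. With LPS + H-CDs it read 0.520, 0.449 and 0.534 FPKM, the highest of the 9 libraries, on 12, 11 and 12 reads.

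The enzymes that remove superoxide and peroxide did not move as one. Of 20 tested, 10 were higher and 4 lower than control (26.7% and 25.4% of all genes were, median 0.16), and with TPM 6 were higher and 8 lower. Sod1, the cytosolic superoxide dismutase, read 55.1, 70.1 and 67.4 FPKM in the control libraries, 44.8, 49.3 and 54.2 with LPS and 76.1, 68.9 and 62.5 with LPS + H-CDs. Control and treated libraries overlapped, and its difference from control was 0.11 (95% interval -0.14 to 0.36, adjusted p = 0.45). Sod2, the mitochondrial dismutase that LPS induces, read 11.5, 11.1 and 11.5 FPKM in the control libraries, 61.6, 61.03 and 67.7 with LPS and 46.3, 49.1 and 44.95 with LPS + H-CDs. It stayed 1.94 ± 0.06 (SE; adjusted p = 1.2e-08) above control, at 68.03% of its LPS gain. Cat, catalase, read 34.4, 33.4 and 35.2 FPKM in the control libraries, 18.2, 17.2 and 16.3 with LPS and 41.1, 56.1 and 57.9 with LPS + H-CDs. LPS had lowered it, and the treated libraries lay above all control libraries, replicate 1 the nearest, by 0.56 ± 0.12 (SE; adjusted p = 0.003), a call that was lost with TPM. Gpx4, the lipid hydroperoxide peroxidase, was lower than control (-0.86 ± 0.11 (SE; adjusted p = 0.00012)), as were the methionine sulfoxide reductase Msrb1 (-0.81) and Prdx2 (-0.35).

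Most genes of the integrated stress response were above control. Of 32 tested 28 were higher and 19 at least 2-fold higher, with a median of 1.18. Of all genes 26.7% were higher and 6.09% at least 2-fold higher. With LPS alone 24 of the 32 were already higher than control and 4 lower, with a median of 0.55. Against LPS, 23 of the 32 were higher with LPS + H-CDs (6.54% of all genes were). With TPM 22 were higher and 3 lower than control. The transcription factor Atf4 itself read 108, 99.5 and 111 FPKM in the control libraries, 251, 249 and 256 with LPS and 310.5, 306 and 299 with LPS + H-CDs. The 3 groups did not overlap, and it stood 1.52 ± 0.06 (SE; adjusted p = 5.2e-08) above control. Asns, asparagine synthetase, stood at 1.54, Slc3a2, the heavy chain that carries Slc7a11 to the membrane, at 1.48, and Ddit3, the factor CHOP, at 1.12. Phgdh, Psat1, Shmt2 and Stc2 did not pass the test, at 0.07, 0.03, 0.03 and -0.17. Of 25 genes of the unfolded protein response and its chaperones 17 were higher (median 0.31), a count that fell to 6 with TPM, where 4 were lower. Hspa5, the chaperone BiP, rose from 467 ± 6.31 to 1273 ± 147 FPKM (SD, n = 3), 1.44 ± 0.09 (SE; adjusted p = 9.7e-07), and Herpud1 by 1.71 ± 0.07 (SE; adjusted p = 4.4e-08). Of 17 cytosolic heat shock genes 11 were higher and 2 lower (median 0.35; 26.7% and 25.4% of all genes were), 6 and 4 with TPM, and 1 was lower without LPS + H-CDs replicate 1. Hsp90aa1 led them at 1.29 ± 0.07 (SE; adjusted p = 5.8e-07).

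Genes of DNA replication were below control. All 40 S phase genes were lower than control (25.4% of all genes were), 20 of them at least 2-fold, with a median of -1.01 beside -0.98 with LPS alone. Between LPS + H-CDs and LPS, 37 of the 40 had no call. Cdc6, which loads the replicative helicase, read 15.2, 15.01 and 14.7 FPKM in the control libraries, 4.61, 4.32 and 4.36 with LPS and 4.80, 4.64 and 4.63 with LPS + H-CDs. The treated and LPS libraries lay together, far below control, at a log2 difference from control of -1.49 ± 0.05 (SE; adjusted p = 2.8e-08). Uhrf1, which keeps DNA methylation through replication, was among those that moved further, at -1.62 ± 0.06 (SE; adjusted p = 4.8e-08). Of 34 mitosis genes 26 were lower (median -0.43), led by the proliferation marker Mki67 at -1.31 ± 0.11 (SE; adjusted p = 7.2e-06) and the separase Espl1 at -1.07 ± 0.08 (SE; adjusted p = 3.7e-06). The cyclin-dependent kinase Cdk1 did not pass the test (0.05 (95% interval -0.16 to 0.26, adjusted p = 0.68)), nor did its partner Ccnb1 (-0.08). The mitosis count was 34 with TPM.

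Macrophage identity genes split evenly, 13 higher and 13 lower of 30 tested (26.7% and 25.4% of all genes were, median -0.02), and with TPM 11 and 16. Csf1r, the receptor for the survival factor of macrophages, read 442, 473 and 451 FPKM in the control libraries, 196, 192 and 197 with LPS and 228, 222 and 229.7 with LPS + H-CDs. LPS had lowered it, and the treated libraries lay slightly above LPS and far below control (-1.003 ± 0.06 (SE; adjusted p = 5.9e-07)). Lyz2, the macrophage lysozyme, read 1494, 1704 and 1674 FPKM in the control libraries, 866, 833 and 992 with LPS and 501, 514 and 469 with LPS + H-CDs. The groups fell in steps without overlap, to -1.71 ± 0.09 (SE; adjusted p = 3.8e-07). Trem2, a lipid-sensing receptor, stood at -1.81, Sirpa, the receptor for the don't-eat-me signal CD47, at -1.75 and the Fc receptors Fcgr3 and Fcgr1 at -1.06 and -0.96. On the higher side were the inhibitory Fc receptor Fcgr2b (2.34), the LPS co-receptor Cd14 (2.26), the scavenger receptors Msr1 (1.68) and Cd36 (1.41) and the factor Irf8 (1.40). Siglec1 and the efferocytosis receptor Axl, which LPS had raised by 2.81 and 2.48, were 0.80 ± 0.09 (SE; adjusted p = 4.3e-05) and 0.67 ± 0.11 (SE; adjusted p = 0.00061) above control. Spi1, the lineage factor PU.1, was level with control (0.00 (95% interval -0.17 to 0.17, adjusted p = 1)). Of 12 tested genes of apoptotic cell uptake 2 were higher and 6 lower (26.7% and 25.4% of all genes were, median -0.30), and with TPM 2 and 9.

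Of 26 immediate early factors 17 were higher and 6 lower (26.7% and 25.4% of all genes were, median 0.89), so the lower share was near that of all genes. Myc, a growth-promoting factor, read 0.0881, 0.245 and 0.0419 FPKM in the control libraries, 33.9, 34.9 and 34.6 with LPS and 15.3, 18.1 and 19.1 with LPS + H-CDs. It was nearly silent in control and kept 50.5% of its LPS gain (4.04 ± 0.09 (SE; adjusted p = 1.2e-09)). Fos and Egr3, at differences from control of 0.27 and 0.41 with LPS alone, were below control with LPS + H-CDs (-0.50 ± 0.11 (SE; adjusted p = 0.0047) and -0.43 ± 0.12 (SE; adjusted p = 0.017)), and Klf10, Klf4 and Klf2 were lower as well (-1.76, -1.15 and -0.68). In sterol and fatty acid synthesis 15 of 27 genes were lower and 5 higher (25.4% and 26.7% of all genes were, median -0.24). With TPM 21 were lower and 2 higher, and 3 were higher without LPS + H-CDs replicate 1. The fatty acid desaturases Scd2 and Scd1 were lower, at -1.59 ± 0.07 (SE; adjusted p = 1e-07) and -1.44 ± 0.08 (SE; adjusted p = 7e-07). In glycolysis 7 of 21 were higher and 4 lower, shares near the 26.7% and 25.4% of all genes, led by the glucose transporter Slc2a1 at 1.44 ± 0.06 (SE; adjusted p = 1.1e-07) with -0.93 for the phosphofructokinase Pfkm at the other end, and with TPM the counts turned to 4 and 10.

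Of 36 nuclear respiratory chain genes 14 were lower than control (25.4% of all genes were) and 22 did not pass the test (median -0.15). With TPM 31 were lower (median -0.46) and with total reads 25. Sdhd, a subunit of succinate dehydrogenase, had -0.67 ± 0.06 (SE; adjusted p = 2.3e-05). None of the 13 mitochondrially encoded mRNAs passed the limma test (1 was lower at an unadjusted p under 0.05, 1 by edgeR and 1 by DESeq2), while with TPM 3 were lower and with total reads 1. Their median difference from control was -0.65 over all libraries and -0.09 without LPS + H-CDs replicate 1. mt-Nd2, for example, read 143, 802 and 749 FPKM with LPS + H-CDs and 1009, 778 and 1039 in control. The low value is that of replicate 1, and the other 2 libraries overlap control.

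**Figure D5:**
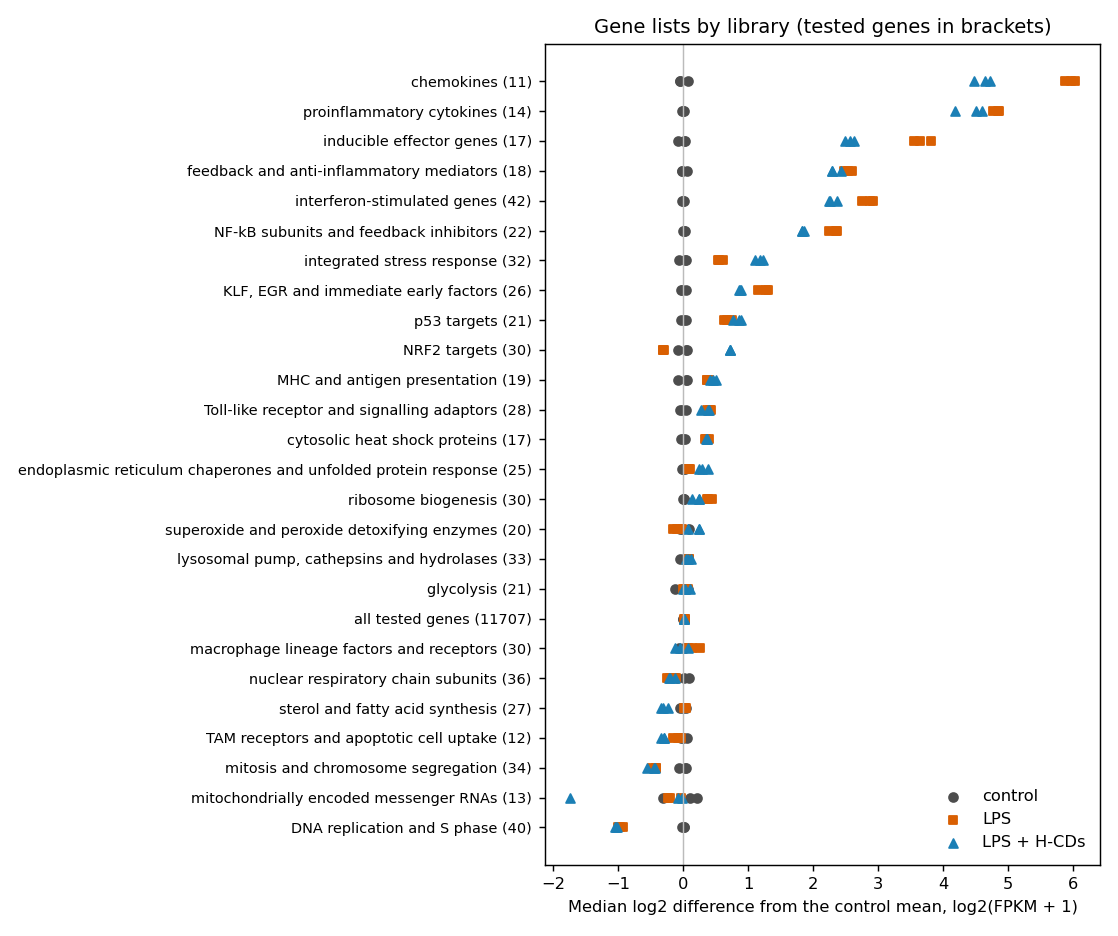
Median log2 difference from the control mean per library, horizontal axis, for each gene list (tested genes in brackets) and for all tested genes; each point is 1 library. The LPS + H-CDs libraries lie between control and LPS for the inflammatory lists, with LPS for S phase, and on the far side of LPS or control for the NRF2 and integrated stress response lists, and replicate 1 stands alone at -1.75 for mitochondrially encoded mRNA.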

How the data were processed

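Polyadenylated RNA of 9 RAW 264.7 libraries was sequenced, 3 each of control, LPS and LPS + H-CDs. The authors deposited gene expression in FPKM, on GRCm38 (mm10) per the submitters' processing notes. Which aligner, counter and normalization made them is not given in the sources used here. Value times gene length was a whole multiple of one step per library (100% of values within 0.01), so reads were recovered. A second deposited table gives a scaled signal, reads per gene for LPS and LPS + H-CDs only, and was used to check those reads. Strand is not stated, and the library protocol marks none, so overlapping and antisense genes cannot be told apart, and near-identical copies (such as Ifit3 and Ifit3b) are uncertain.

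Group differences came from limma 3.58.1 (R 4.3.3) with an intensity trend, fitted on log2(FPKM + 1) over all 9 libraries and 11707 genes (at least 1 FPKM in at least 3 libraries), 2-sided, adjusted by Benjamini-Hochberg over all genes, with moderated 95% intervals on 6 residual degrees of freedom plus the prior. A fold on this scale understates the change of low genes. edgeR 4.0.16 and DESeq2 1.42.0 on the recovered reads were alternatives, as were a pseudocount of 0.1, no filter, TPM or total-read scaling, other margins, a replicate block, the 6 libraries of the comparison alone and each library left out. The functions for the fits, the groups of genes and the positions were tested on simulated reads, with changes planted only in genes of higher read counts. Read recovery, lists, markers, promoter matches and figures were not tested that way.

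Named genes were 20 fixed genes, the 10 highest and 10 lowest protein-coding genes with at least 5 FPKM in the higher group and no overlap, the leading members of each group at the same floor, and up to 3 genes per list by adjusted p. Some genes that this rule names are not reported here. Low members, genes at a margin, further members of the lists and Ccl17, Cbr3 and Nqo1 were named after their values were seen. The members and lists were chosen with earlier results of these data known. The lists without LPS + H-CDs replicate 1 were added after seeing the data. Promoters and motifs used RefSeq (GRCm38.p6), 8054 of 11707 genes matched by symbol. Of 54532 genes, 29847 had no read. With 3 against 3 libraries an exact permutation test of one gene cannot go below p = 0.1, so none was run.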

Additional observations from a re-analysis of the deposited data

How the results depend on the processing

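The call of a gene was followed over the alternatives for 127 of the named genes, and none of these reversed. Of 2159 values for the 127 genes, 2110 kept their call, 33 lost one and 16 gained one. The losses were mostly at Cd300e and Sema4c and the gains at Cd151, Lipa, Ms4a6c, mt-Nd4l and mt-Nd1. Other genes named in the text, such as Zfp36l1, were not among the 127. With TPM, 1651 genes were higher and 5338 lower than control, 1220 at least 2-fold lower, 21 lowered genes were back, 240 were part of the way, 1 raised and 3 lowered genes were past control, and 1 gene was lower only with H-CDs. With total reads the counts were 2033 higher, 4528 lower, 732 at least 2-fold lower, 11 lowered genes back, 236 part of the way, and 1 raised and 4 lowered genes past control. At least 2-fold lower genes numbered 740 with a pseudocount of 0.1, 782 by edgeR and 771 by DESeq2, against 458. With that pseudocount, 7 raised genes were back, 2 lowered genes were past control, 2 were lower only with H-CDs, and the LPS + H-CDs position was 0.821. Without the filter, 66 lowered genes were part of the way and the position was 0.822. With the narrower margin, 0 raised and 0 lowered genes were back and 2 were higher only with H-CDs, and with a 2-fold margin 105 and 44 were back, 66 were higher and 19 lower only with H-CDs. The cause of these changes was not tested beyond the settings themselves.

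Leaving out 1 library gave 2774 to 3044 higher and 2588 to 2893 lower genes, and 700 to 727 and 453 to 483 at least 2-fold. It gave 8 to 13 raised and 4 to 7 lowered genes back, 302 to 415 raised and 63 to 102 lowered genes part of the way, 28 to 39 and 7 to 15 moved further, 0 raised and 1 to 2 lowered past control, 15 to 21 higher and 0 to 4 lower only with H-CDs, and a position of 0.821 to 0.842. The 109 lowered genes part of the way were 69, 63 and 71 without LPS replicate 1, LPS replicate 2 and LPS + H-CDs replicate 3. Genes lower only with H-CDs numbered 4 without LPS + H-CDs replicate 2 and 3 without LPS + H-CDs replicate 3, and lowered genes past control 2 without LPS + H-CDs replicate 2. Same-numbered libraries showed little shared deviation (correlations of -0.12 to 0.20 over genes). Deviations from means of 3 libraries cannot settle whether the numbers pair the libraries, and the labels do not say. With the replicate number as a block, 3005 genes were higher and 2831 lower than control, and 1 gene was lower only with H-CDs. Low genes are limited by depth, since the values of single libraries rest on few reads.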

Other observations

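Gene lists not described above were mixed in direction. Of 28 genes of Toll-like receptor signalling 16 were higher and 5 lower with LPS + H-CDs than in control (26.7% and 25.4% of all genes were; median log2 difference 0.37), with the kinase Irak2 at 2.56 and the co-receptor subunit Ly96 (MD-2) at 1.18 on one side and the nucleic acid receptors Tlr13 at -1.43, Tlr7 at -1.05 and Tlr9 at -0.87 on the other. Tlr4 itself, the LPS receptor, had a difference of -0.36 that did not pass the test. With TPM the counts were 10 and 10. Of 19 antigen presentation genes 12 were higher and 2 lower (median 0.50), led by the peptide transporter Tap1 at 1.53, with H2-DMa at -1.24 the lowest. With TPM they were 8 and 5. Of 21 p53 targets 11 were higher and 4 lower (median 0.85), from Gadd45b at 3.87 to the sestrin Sesn1 at -1.92, with Cdkn1a (p21) at 1.93 and Sesn2 at 1.94.

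Of 33 lysosomal genes 13 were higher and 9 lower (26.7% and 25.4% of all genes were; median 0.14), 4 and 16 with TPM. Subunits of the proton pump led the higher side, Atp6v1h at 1.05 and Atp6v0a1 at 1.00, while Tfeb, a master factor of lysosomal genes, stood at -1.79 and the saposin precursor Psap at -1.09. Of 30 ribosome biogenesis genes 16 were higher and 3 lower (median 0.20), and with TPM 4 were higher and 11 lower, so that list has no direction that holds across scalings. Of these genes, Nop14 stood at 0.59 and the RNA polymerase I factor Ubtf at -0.83. All values are limma log2 differences on the log2(FPKM + 1) scale.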
